A study of Mus musculus with 6 samples.

Results

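The transcripts described are those of 9 ligands of the tumour necrosis factor (TNF) superfamily in mouse induced regulatory T cells (iTreg) exposed to prostaglandin E2 (PGE2). They were taken by gene symbol from the annotated genes of 6 RNA sequencing tables, and the 9 genes Lta, Ltb, Tnf, Cd40lg, Fasl, Tnfsf8, Tnfsf10, Tnfsf11 and Tnfsf14 are among 47643 annotated gene IDs. Each symbol occurs under 1 Ensembl gene ID, and all 9 are annotated as protein coding. CD4+ T cells from the spleen of C57BL/6 mice with the Foxp3-DTR/EGFP allele were turned into iTreg over 2 days with anti-CD3, anti-CD28 and TGF-β, then given vehicle (DMSO) or 100 nM PGE2 for 6 h and sorted for EGFP. All 6 libraries therefore carry the Foxp3-DTR/EGFP allele, were stimulated through CD3 and CD28 and were selected for Foxp3 reporter fluorescence, and they form 3 vehicle and 3 PGE2 libraries. The labels do not state separate animals or cultures for the replicates, so p-values measure the spread between these samples, which may be technical.

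TNF superfamily ligands are mostly type II membrane proteins that assemble as trimers, signal to a neighbouring cell through receptors of the TNF receptor superfamily, and can be released by proteases. T cells induce several of them after contact with antigen: CD40 ligand licenses B cells and dendritic cells, Fas ligand kills cells that bear Fas, and lymphotoxins and TNF drive NF-kB signalling in lymphoid and inflamed tissue. Lymphotoxin alpha is secreted as a homotrimer or held at the membrane in heterotrimers with lymphotoxin beta.

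Levels are given as FPKM (fragments per kilobase, relative to all fragments of the library), which accounts for transcript length, so that they can be compared between genes. Depth, read as the ratio of coverage to FPKM of genes with a single transcript, was 3.996 to 5.446 gigabases of fragments per library, lowest in replicate 3 of both groups. T cell markers were high throughout: Cd3e stood at 144 to 161 FPKM, Cd4 at 157 to 190 and Foxp3 at 75.4 to 136. Of 12113 genes that averaged 1 FPKM or more over the libraries, 69 rose and 29 fell after PGE2 (limma, Benjamini-Hochberg adjusted p under 0.05), 0.809% of those tested. With the replicate number of the titles as a block, 215 rose and 180 fell, 3.26% of those tested. The 2 samples of replicate 3 deviated together from their group means (correlation 0.53 across genes). Replicates 1 and 2 correlated at 0.23 and 0.31 with the same number and at 0.27 and 0.15 with different numbers. The data thus do not show whether replicates 1 and 2 are paired by number. Blocked values are given where they change a call.

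Of the 9 ligands 8 passed the filter of 1 FPKM, and Tnfsf14 did not. Among the 8, Cd40lg rose and Lta fell, against a background of 0.57% of tested genes called higher and 0.239% called lower. With the block Fasl also rose, which made 3 of 8, where 1.77% of tested genes were called higher and 1.49% lower. The 2 groups did not overlap for 4 of the 8 ligands, Cd40lg and Fasl (higher with PGE2) and Lta and Tnfsf8 (lower), against 19.7% of all tested genes, 7.81% higher and 11.9% lower. An unadjusted p under 0.05, used below for lists with no called gene, was reached by 13% of all tested genes. The median log2 change of the 8 was -0.14, and that of all tested genes was -0.03.

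**Figure D1:**
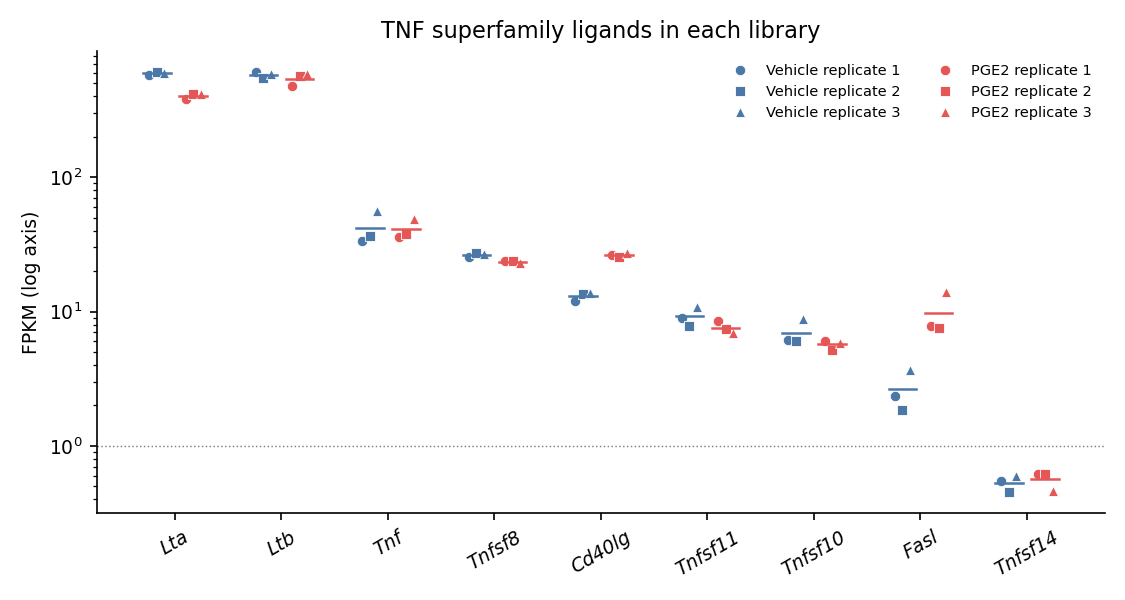
FPKM of each of the 9 ligands (log axis) in the 3 vehicle (blue) and 3 PGE2 (red) libraries, with marker shape for the replicate number and a bar at the group mean. Lta and Ltb are the highest ligands in every library, at 384 FPKM or more, the dotted line marks the 1 FPKM filter, and only Tnfsf14 lies under it.

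Cd40lg encodes CD40 ligand, the helper signal of CD4+ T cells for CD40 on B cells and dendritic cells. Its gene (ENSMUSG00000031132.1) lies on chromosome X from 57212143 to 57224042 on the plus strand in the mm10 coordinates of the files and has 5 exons. With vehicle, Cd40lg stood at 11.9, 13.4 and 13.8 FPKM (replicates 1, 2 and 3, the order used throughout), and with PGE2 at 26.4, 25.3 and 27.3 FPKM. The lowest PGE2 library was thus well above the highest vehicle library, and replicates of a group lay close together. The mean went from 13 ± 0.983 to 26.3 ± 0.987 FPKM (SD, n = 3 per group), a log2 change of 0.96 (SE 0.09, 95% interval 0.76 to 1.17, adjusted p = 0.0057 with limma). In pairs of the same replicate number the PGE2 library held 2.21, 1.89 and 1.98 times the FPKM of the vehicle library. The rise was called in all 16 alternative analyses, with adjusted p from 0.0045 to 0.039. It ranked 46 among the rises of all 12113 tested genes.

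Fasl encodes Fas ligand, which triggers apoptosis through Fas. It lies on chromosome 1 from 161780689 to 161788495 on the minus strand (ENSMUSG00000000817.10) and has 4 exons. Its promoter is shown because Fasl had the largest change of the 9 ligands. The 250 bases before the RefSeq start (build GRCm38.p6, chr1:161788496-161788745, minus strand, written 5′ to 3′) hold 1 CRE core, TGACG or its reverse complement, 48 bases before the start, and 2 copies of the NFAT core GGAAA on either strand, which are in capitals.
Fasl: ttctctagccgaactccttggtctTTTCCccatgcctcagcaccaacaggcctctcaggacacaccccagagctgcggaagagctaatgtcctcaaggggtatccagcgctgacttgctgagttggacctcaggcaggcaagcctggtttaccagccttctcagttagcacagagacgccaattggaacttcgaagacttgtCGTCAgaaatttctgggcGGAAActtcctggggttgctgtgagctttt
A CRE core is present in 17.8% of 32851 RefSeq promoter windows of this length and an NFAT core in 55.6%, so both matches are common.

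With vehicle, Fasl stood at 2.37, 1.85 and 3.67 FPKM, with a mean read coverage over the gene of 12.1, 9.34 and 14.7. With PGE2 it was at 7.83, 7.52 and 13.9 FPKM, with a coverage of 42.6, 39 and 63.4. Every PGE2 library was above every vehicle library, and replicate 3 was the highest of its group in both. The PGE2 library held 3.31, 4.06 and 3.8 times the FPKM of the vehicle library with the same number. The log2 change was 1.55, 2.93-fold on the log2(FPKM + 1) scale, rank 9 among the rises of all tested genes. Without the block it missed the threshold (SE 0.26, 95% interval 0.94 to 2.16, adjusted p = 0.053 with limma). With the block it passed (SE 0.1, interval 1.31 to 1.79, adjusted p = 0.0022 with limma). It also passed with read coverage in place of FPKM (adjusted p = 0.049 with limma) and with a filter at 5 FPKM (0.042). That filter lends no support, since Fasl reached it only through its PGE2 level (means 2.63 FPKM with vehicle and 9.76 with PGE2). A further pass, without replicate 3 of both groups (0.013), came from a fit chosen after seeing the data. In all, Fasl was called in 4 of 16 alternative analyses. Without any filter on the mean the adjusted p was 0.21. It also missed the threshold without any 1 of the 6 libraries (0.055 to 0.19).

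Fas ligand is also a product of NK and CD8 T cells, so markers of these cells are set beside it. Klrd1, a receptor chain of NK cells and activated CD8 T cells, was at 0.961, 0.627 and 2.78 FPKM with vehicle and at 2.54, 2.26 and 4.5 FPKM with PGE2. It was highest in replicate 3 of each group, as was Fasl, and its log2 change of 0.8 gave adjusted p = 0.38 without the block and 0.033 with it. Nkg7, a cytotoxic granule protein, had the opposite direction, with 53.9, 51.6 and 53.4 FPKM with vehicle and 39, 41.4 and 39.1 with PGE2 (log2 change -0.4, adjusted p = 0.067, and 0.041 with the block). Of the 8 NK and CD8 markers 4 were tested, and 0 rose and 0 fell with limma, while unadjusted p-values under 0.05 and the block each gave 1 higher (Klrd1) and 1 lower (Nkg7), where 13% and 3.26% of all tested genes passed. Of the 4 tested, 3 had a log2 change above 0. Cd8b1, a CD8 chain, was at 4.73, 4.96 and 4.68 FPKM with vehicle and 5.31, 5.6 and 5.88 with PGE2, without overlap (log2 change 0.19, adjusted p = 0.45, and 0.32 with the block). Gzma, the gene of granzyme A, overlapped (log2 change 0.08). The summed level of the 8 markers was 59.4 to 63.1 FPKM with vehicle and 49.5 to 52.5 with PGE2, most of it Nkg7. Without Nkg7 the other 7 summed to 8.66, 7.71 and 9.64 FPKM with vehicle and 10.5, 10.3 and 13.4 with PGE2, higher with PGE2 without overlap. This sum leaves out the only tested marker with a log2 change below 0, and most of its difference lay in Klrd1 and Cd8b1. Taken singly, 7.81% of all tested genes were higher with PGE2 without overlap, a share that applies to Cd8b1 and not to the sum. Ncr1 and Klrb1c, which define NK cells, were listed at 0 in all 6 libraries. Cd8a was at 0.598 to 0.868 FPKM and Prf1, the gene of perforin, at 0.519 to 0.876, and neither was tested. The part of such cells in the Fasl difference was not tested. In bulk RNA a larger number of cells that make a transcript and more transcript per cell cannot be told apart.

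**Figure D2:**
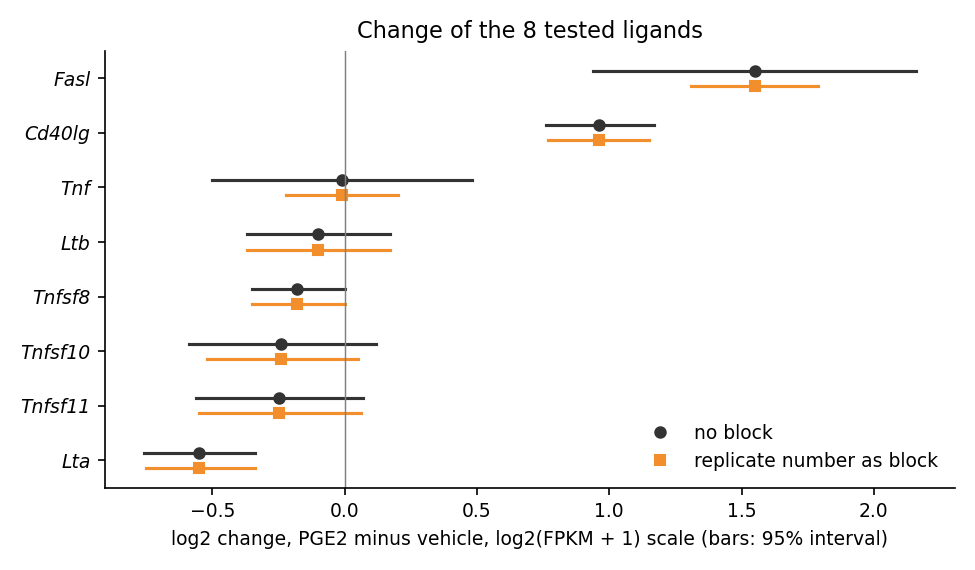
Log2 change, PGE2 minus vehicle, of the 8 tested ligands with its 95% interval, without a block (dark circles) and with the replicate number as a block (orange squares). The interval of Fasl is 0.94 to 2.16 without the block and 1.31 to 1.79 with it, and that of Lta lies below 0 in both.

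Lta, Tnf and Ltb encode lymphotoxin alpha, TNF and lymphotoxin beta and lie side by side within 10913 bases of chromosome 17. Ltb (ENSMUSG00000024399.5) runs from 35194439 to 35196320 on the plus strand, Tnf (ENSMUSG00000024401.14) from 35199381 to 35202007 on the minus strand, and Lta (ENSMUSG00000024402.5) from 35203165 to 35205351 on the minus strand. Tnf and Lta are 1157 bases apart and Ltb and Tnf 3060. Lta fell, and the values of Ltb and Tnf overlapped between groups. Whether Lta changed differently from each neighbour is read from within-library ratios.

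With vehicle, Lta stood at 581, 610 and 593 FPKM, and with PGE2 at 384, 419 and 415 FPKM. The groups were separated by a gap several times the spread within either. Lta had a log2 change of -0.55 (SE 0.09, 95% interval -0.76 to -0.34, adjusted p = 0.049 with limma), and the PGE2 library of each number held 0.662, 0.687 and 0.701 of its vehicle partner. The call held in 6 of 16 alternative analyses. With the block the adjusted p was 0.029, but Lta missed the threshold without any 1 of the 6 libraries (0.093 to 0.22) and after scaling to a common median (0.052), with a log2 change of -0.51 or lower in each. Of 2 assembled loci over Lta, listed apart from the annotated gene, the one with the larger overlap was at 559, 570 and 645 FPKM with vehicle. With PGE2 it was at 367, 393 and 394. It spans 5774 bases in vehicle replicate 2 and 2329 to 2471 in the other libraries, and it rests on the same reads as the gene.

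Ltb was at 605, 548 and 584 FPKM with vehicle and 474, 564 and 592 with PGE2. The groups overlapped, with PGE2 replicate 1 the lowest library, and the log2 change was -0.1 (SE 0.12, 95% interval -0.37 to 0.17, adjusted p = 0.81). The coverage of Ltb was 0.766 to 0.769 of what its FPKM predicts from single-transcript genes, in both groups alike; the annotation gives it 3 transcripts, 2 of them coding. Tnf was at 33.3, 36.5 and 56.5 FPKM with vehicle and 36, 38 and 49.3 with PGE2. Its high libraries were replicate 3 of both groups, and the log2 change of -0.01 (SE 0.21, 95% interval -0.5 to 0.48, adjusted p = 0.99), which became 0.02 after scaling to a common median, had an interval of -0.22 to 0.2 with the block.

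Ratios within a library do not depend on how libraries are scaled. The FPKM ratio of Lta to Ltb was 0.96, 1.11 and 1.01 with vehicle and 0.812, 0.743 and 0.702 with PGE2. The groups did not overlap for this ratio (two-sided exact permutation p = 0.1, the smallest that 3 against 3 allows, and 0.2 adjusted over 4 ratios). Which of the 2 transcripts was the more abundant depended on the measure. By read coverage Lta was at 2970, 3080 and 2370 and Ltb at 2380, 2120 and 1800 with vehicle. With PGE2 the coverage was 2090, 2180 and 1890 for Lta and 1980, 2250 and 2070 for Ltb. The ratio of Lta to Tnf was 17.4, 16.7 and 10.5 with vehicle and 10.7, 11 and 8.43 with PGE2. The groups overlapped (exact permutation p = 0.3, adjusted 0.4), with replicate 3 the lowest of each group, but within pairs of the same number the ratio was lower with PGE2 in 3 of 3, at 0.612, 0.66 and 0.804 of the vehicle value. The Lta to Ltb ratio was also lower in 3 of 3 pairs, and both gave a paired exact permutation p = 0.25, the smallest that 3 pairs allow. That of Tnf to Ltb lay between 0.055 and 0.0967 in all 6 libraries (exact permutation p = 0.8). The fourth ratio, Fasl to Cd40lg, was 0.198, 0.138 and 0.266 with vehicle and 0.297, 0.297 and 0.511 with PGE2, without overlap (exact permutation p = 0.1, adjusted 0.2).

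An intron of Lta holds the small RNA gene Mir6974 (ENSMUSG00000099006.1, chromosome 17 from 35204475 to 35204557, minus strand), which overlaps no annotated Lta exon and gives a reading of the locus apart from the exons. Mir6974 was listed at 57.6, 66.6 and 76.1 FPKM with vehicle and at 40.9, 44.4 and 52.3 with PGE2. Every PGE2 library was below every vehicle library, with a log2 change of -0.53 (adjusted p = 0.14 with limma, and 0.017 with the block). Of all tested genes 11.9% were lower with PGE2 without overlap, and 1.49% were called lower with the block. Mir6974 was chosen after its values were seen, so its fall is not a separate test of that of Lta. Unspliced Lta RNA and the small RNA's own precursor cannot be told apart over these 83 bases. Mir6973a, in an intron of Ltb, was at 22.6, 29.3 and 25.1 FPKM with vehicle and 19.5, 23.3 and 25.8 with PGE2, and overlapped.

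**Figure D3:**
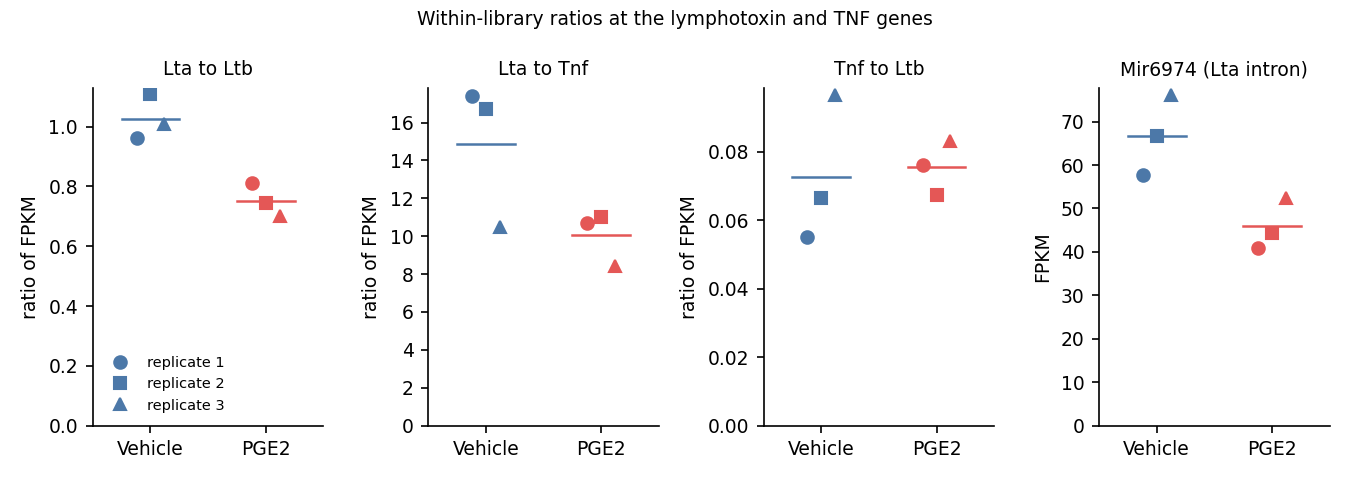
Ratios of FPKM between Lta, Ltb and Tnf within each library, and the FPKM of Mir6974 in the Lta intron, for vehicle (blue) and PGE2 (red), with marker shape for the replicate number and a bar at the mean. The Lta to Ltb ratio and Mir6974 separate the groups. The Lta to Tnf ratio overlaps between groups but is lower with PGE2 at each replicate number, and the Tnf to Ltb ratio overlaps.

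The promoter of Lta is shown as that of the ligand that fell. The 250 bases before the RefSeq start (GRCm38.p6, chr17:35205352-35205601, minus strand, 5′ to 3′) hold no CRE core and 2 NFAT cores, in capitals.
Lta: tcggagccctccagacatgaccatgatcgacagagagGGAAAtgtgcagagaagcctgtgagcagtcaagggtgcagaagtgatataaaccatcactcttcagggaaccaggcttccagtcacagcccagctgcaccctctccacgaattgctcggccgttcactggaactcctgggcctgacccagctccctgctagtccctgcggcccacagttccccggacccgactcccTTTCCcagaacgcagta
The AP-1 motif TGANTCA and an NF-kB pattern of 3 G and 2 C around any 5 bases were also searched on both strands, and the latter can overlap an NFAT core. Promoters of 8 of the 9 ligands were matched, all but that of Cd40lg. CRE cores were in the windows of Fasl and Tnfsf10, an AP-1 motif (in 6.75% of all windows) in that of Tnfsf14, and NFAT cores in all 8. The NF-kB pattern (in 45.8% of windows) was in 6 of the 8 and not in those of Tnfsf8 and Tnfsf10.

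Several ligand transcripts carry AU-rich pentamers, ATTTA, in the 3′ UTR, which proteins such as tristetraprolin bind to speed decay. Tnf has 8 in 764 bases (GENCODE M21), a number that 10.5% of 9922 tested coding genes reach or exceed, Lta has 3 in 572, Cd40lg 2 in 455, Fasl 1 in 887 and Ltb 0 in 174. Longer 3′ UTRs of other ligands hold as many or more: Tnfsf8 has 10 in 2799 bases, Tnfsf10 8 in 3998 and Tnfsf11 6 in 1131, and Tnfsf14 has 1 in 1019. The median gene has 2. The stretches of 30 bases with the most pentamers in Tnf and Lta, neighbours on the same strand, are shown to compare them, with the pentamers in capitals.
Tnf: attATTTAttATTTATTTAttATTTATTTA
Lta: tATTTAtggagagaaaagttaagttATTTA
The window of Tnf holds 5 pentamers that overlap in part, and that of Lta 2. Zfp36, the gene of tristetraprolin, was at 45.7, 44.1 and 13.9 FPKM with vehicle and 47.2, 39.3 and 14.3 with PGE2, lowest in the libraries, replicate 3 of each group, in which Tnf was highest. The log2 change of Zfp36 was -0.02 (SE 0.56, 95% interval -1.33 to 1.28, adjusted p = 0.99 with limma), and no relation to Tnf was tested. Some other genes of its list, such as Zc3h12a, were also lowest in replicate 3 of each group, and some, such as Elavl1, were not. Of 9 RNA-binding proteins of ligand transcripts 0 rose and 0 fell with limma or with the block. By unadjusted p under 0.05 there was 1 (Rc3h2, the gene of roquin-2, log2 change -0.46, adjusted p = 0.28), where 13% of all tested genes passed. All 9 had a log2 change below 0 (median -0.13), and the median of all tested genes was also below 0, at -0.03. The next smallest p-values were those of Ptbp1 (-0.13), Khsrp (-0.16) and Zfp36l2 (-0.1).

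The remaining ligands showed no called change. Tnfsf8, the ligand of CD30, was at 25.4, 27.3 and 27 FPKM with vehicle and at 23.6, 23.6 and 22.9 with PGE2. All PGE2 libraries were lower than all vehicle libraries, but by little: the log2 change was -0.18 (SE 0.08, 95% interval -0.35 to 0, adjusted p = 0.38, and 0.25 with the block). Tnfsf11, which encodes RANKL, the osteoclast factor that activated T cells also make, was at 9.03, 7.75 and 10.9 FPKM with vehicle and 8.45, 7.37 and 6.91 with PGE2. Tnfsf11 overlapped between groups (log2 change -0.25, 95% interval -0.56 to 0.07, adjusted p = 0.51), and the PGE2 to vehicle ratio was 0.936, 0.951 and 0.635 by replicate number. Tnfsf10, which encodes the death ligand TRAIL, was at 6.09, 5.99 and 8.84 FPKM with vehicle and 6.08, 5.14 and 5.88 with PGE2 (log2 change -0.24, 95% interval -0.59 to 0.12, adjusted p = 0.59). Vehicle replicate 3 was the highest library for both Tnfsf11 and Tnfsf10. Tnfsf14, which encodes LIGHT, was at 0.452 to 0.598 FPKM with vehicle and 0.459 to 0.62 with PGE2, at a coverage of 2.09 to 3.38, and was not tested.

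In order of level the vehicle means were Lta 595, Ltb 579, Tnf 42.1, Tnfsf8 26.6, Cd40lg 13, Tnfsf11 9.22, Tnfsf10 6.98, Fasl 2.63 and Tnfsf14 0.533 FPKM. Among neighbours in that order only Lta and Ltb, and Tnfsf11 and Tnfsf10, overlapped in their libraries. With PGE2 the order was Ltb 543, Lta 406, Tnf 41.1, Cd40lg 26.3, Tnfsf8 23.4, Fasl 9.76, Tnfsf11 7.58, Tnfsf10 5.7 and Tnfsf14 0.567 FPKM, and only Fasl and Tnfsf11 overlapped. Cd40lg thus stood above Tnfsf8 with PGE2 and below it with vehicle, without overlap in either group. The order of Ltb and Lta holds for FPKM only, since by read coverage the PGE2 libraries of these genes overlapped. The lymphotoxins dominated the set: Lta and Ltb made up 90.7% to 93% of the summed ligand FPKM with vehicle and 88.7% to 90.1% with PGE2. The sum itself was 1252 to 1299 FPKM with vehicle and 967.2 to 1134 with PGE2.

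**Figure D4:**
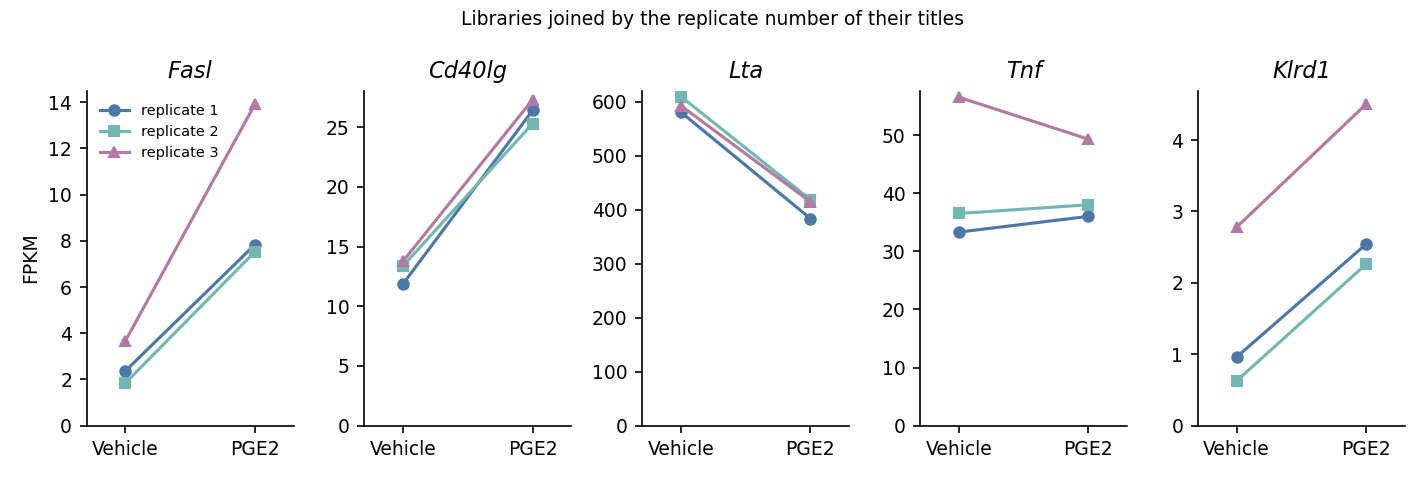
FPKM of Fasl, Cd40lg, Lta, Tnf and the NK and CD8 marker Klrd1 in vehicle and PGE2 libraries, joined by replicate number, with each axis from 0. Fasl and Cd40lg go up and Lta goes down in all 3 pairs, and replicate 3 is the highest of its group for Fasl, Tnf and Klrd1.

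B cells make lymphotoxins too, and the B cell markers are set beside Lta. The summed level of the 7 markers was 130 to 228 FPKM with vehicle and 85.2 to 123 with PGE2, nearly all of it Ighm, at 223, 187 and 126 FPKM with vehicle and 119, 106 and 81 with PGE2 (log2 change -0.78, adjusted p = 0.2, and 0.01 with the block). Of these 7 markers 2 were tested, and 0 rose and 0 fell with limma. Ighm was the 1 marker lower by the block or by unadjusted p under 0.05, where 3.26% and 13% of all tested genes passed. Cd79b, the second tested marker and a chain of the B cell receptor, was at 5.32, 4.08 and 3.42 FPKM with vehicle and 3.63, 3.02 and 3.56 with PGE2. It overlapped and had the direction of Lta and Ighm (log2 change -0.25, adjusted p = 0.56, and 0.34 with the block). Its partner chain Cd79a was at 0.335 to 0.376 FPKM with vehicle and higher, 0.423 to 0.592, with PGE2, and was not tested. Ms4a1 was near 0, at 0.00314 to 0.0357 FPKM, and Pax5 was listed at 0 in some libraries of each group. Of 8 myeloid markers 1 was tested, Cd68, and the summed level was 2.32 to 5.74 FPKM with vehicle and 2.98 to 4.72 with PGE2. Lyz2, Csf1r, Cd14, Adgre1 and Itgax were listed at 0 in at least 1 library. Cytokines of conventional activated CD4 T cells were low: the 8 genes summed to 2.03 to 3.24 FPKM with vehicle and 2.29 to 2.87 with PGE2, and Il17a and Il5 were at 0 in at least 1 library. The part of other cells in the Lta difference was not tested. Of 8 T cell and Treg markers, 1 rose (Ctla4), where 0.57% of all tested genes rose, and 0 fell. Their median log2 change was 0.08.

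Of the other 9 ligands of the superfamily only Tnfsf4 and Tnfsf9 passed the filter, and 0 rose and 0 fell with limma, with the block or at an unadjusted p under 0.05. Tnfsf4, the ligand of OX40, was at 6.6, 5.72 and 7.35 FPKM with vehicle and 5.38, 4.04 and 5.76 with PGE2 (log2 change -0.32, adjusted p = 0.4), and Tnfsf9, the ligand of 4-1BB, had a log2 change of 0.11 (adjusted p = 0.9). Tnfsf18, the ligand of GITR, was listed at 0 throughout.

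Among receptors of the 9 ligands 7 of 12 were tested. With limma 0 rose and 0 fell, and 1 had an unadjusted p under 0.05, Tnfrsf10b, the mouse receptor of TRAIL (log2 change -0.3, adjusted p = 0.26). That 1 of 7 is near the 13% of all tested genes. With the block 1 fell, Tnfrsf8, the gene of CD30, where 1.49% of all tested genes were called lower. It was at 34.7, 28.3 and 14 FPKM with vehicle and 24.9, 21.7 and 8.91 with PGE2, lowest in replicate 3 of both groups. Its log2 change was -0.48 (adjusted p = 0.72 with limma without the block and 0.035 with it). Fas, the receptor of Fas ligand, was at 14.7 to 15.4 FPKM with vehicle and 14.2 to 19.7 with PGE2 (log2 change 0.15, adjusted p = 0.67), so ligand and receptor transcripts were both present. Tnfrsf1b, a receptor of TNF and lymphotoxin alpha and the highest of the list, was at 36.4 to 45.6 and 39.1 to 46.6 FPKM, and Tnfrsf22, a decoy receptor of TRAIL, had a log2 change of -0.12. Ltbr, the receptor of the membrane lymphotoxin heterotrimer, was at 0.15 to 0.462 FPKM, and Cd40 at 0.57 to 1.07.

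Of 8 proteases and cofactors of ligand release 5 were tested, and 0 rose and 0 fell with limma, with the block or at an unadjusted p under 0.05 (median log2 change -0.01). Adam10, a sheddase of Fas ligand among other proteins, was at 33.6 to 44.6 FPKM with vehicle and 32.8 to 36 with PGE2 (log2 change -0.15), and Adam17, the TNF converting enzyme, at 11.4 to 12.5 and 12.4 to 13.6 (0.1). Rhbdf2, a cofactor of Adam17, had a log2 change of -0.2 and Sppl2a, an intramembrane protease, of 0.09.

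Of 15 TRAF and death-domain adaptors all were tested, and 0 rose and 0 fell with limma or with the block, with 10 of 15 higher and a median log2 change of 0.02. By unadjusted p under 0.05 there was 1 gene, Birc2, the gene of cIAP1, at 19.5, 21.8 and 18.4 FPKM with vehicle and 27.9, 29 and 22.9 with PGE2 (log2 change 0.4, adjusted p = 0.2). That 1 of 15 is below the 13% of all tested genes. Traf1 (0.38), Traf3 (-0.25) and Birc3 (0.21) followed, and Casp8, the initiator caspase of Fas signalling, had the highest level, 64.6 to 78.4 FPKM with vehicle and 68 to 85.5 with PGE2. Of 10 genes that neighbour Lta, Tnf and Ltb on chromosome 17, 8 were tested and 0 rose and 0 fell with limma, with the block or at an unadjusted p under 0.05 (median log2 change -0.04). These include Prrc2a (-0.15), Bag6 (-0.11), Atp6v1g2 (-0.12) and Ddx39b (0.1).

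**Figure D5:**
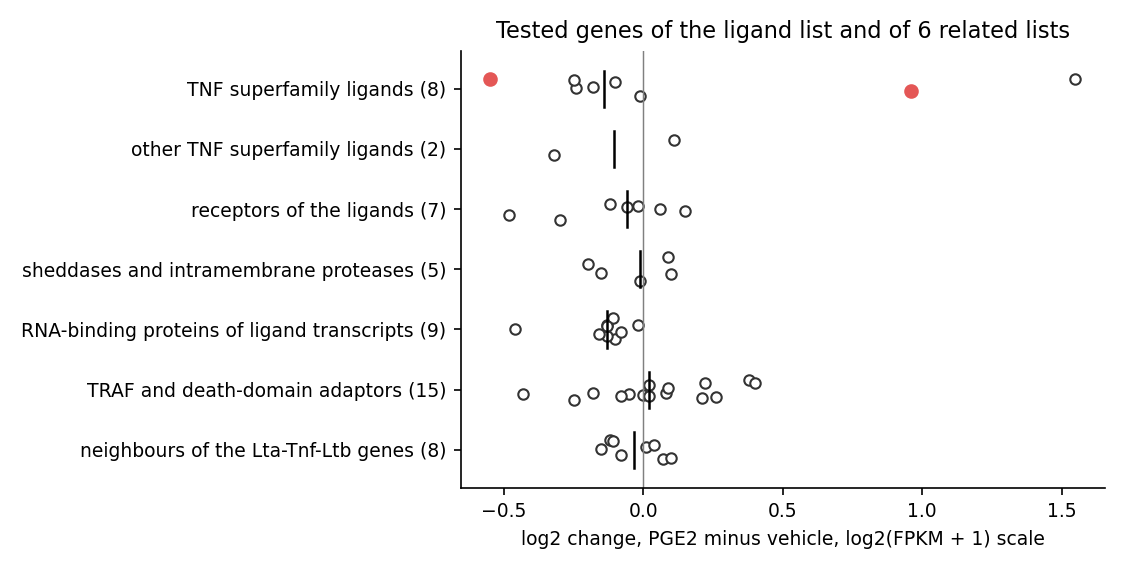
Log2 change, PGE2 minus vehicle, of each tested gene of the ligand list and of 6 related lists, with filled red points for adjusted p under 0.05 without a block, a bar at each median, and the number tested in brackets. Only Cd40lg and Lta are filled, and the open point at 1.55 is Fasl.

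The coding genes nearest to Cd40lg in their pattern over the 6 libraries, by root mean square distance of centred log2(FPKM + 1) values, were Zfp281 (0.05), Rhoq (0.062) and Fam46a (0.092). Zfp281, a zinc finger transcription factor, was at 14.9, 15.9 and 18.3 FPKM with vehicle and 32.2, 30.4 and 32.4 with PGE2. Those nearest to Lta were Tfap4 (0.042), Mina (0.051) and Fam212b (0.057). Tfap4, a basic helix-loop-helix factor, was at 6.18, 5.97 and 6.35 FPKM with vehicle and 3.54, 4.1 and 3.91 with PGE2. Since the genes were picked for their distance over these same libraries, their changes between groups carry no further information.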

How the data were processed

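Poly(A) RNA of 3 vehicle and 3 PGE2 libraries was sequenced from a stranded kit, per the labels' protocols. Trim Galore and HISAT2 on mm10 are named in the submitters' processing notes; the annotation and counting program are not stated. Each table deposited by the authors gives, per the file headers, FPKM and read coverage (a signal not scaled to library size). Reads cannot be recovered, so no counting interval is given. IDs listed more than once were summed.

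Genes averaging 1 FPKM or more, 12113 in all, were compared as log2(FPKM + 1), which understates changes of low genes, with limma 3.58.1 in R 4.3.3 (variance trend, two-sided, Benjamini-Hochberg threshold 0.05). On simulated data for this comparison over 12113 genes 50% of 100 genes with a 1.5-fold change and 91% of 100 with a 2-fold change were found, with 8 false calls. The simulated noise was normal and independent between libraries, without the deviations that the replicate 3 libraries share, so these shares may differ in the data. Deviations of libraries with the same number in their titles correlated across genes at 0.23, 0.31 and 0.53, and the numbers were used as a block in an alternative fit. Between different numbers the values were 0.27 and 0.15 among replicates 1 and 2 and -0.43 to -0.29 with replicate 3. Only replicate 3 thus stood apart. Whether replicates 1 and 2 are paired by number is not shown, and the blocked values rest on taking them as pairs.

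Members and lists were chosen with earlier results of these data known. Named are all 9 members, from each of 6 related lists the called genes, up to 4 with the smallest p and the highest, marker genes, and the 3 coding genes nearest each called member. Other genes, including Zfp36, Ltbr, Cd40, Tnfsf18 and Mir6974, were chosen after their values were seen. Promoters are from RefSeq and 3′ UTRs from GENCODE M21. A marker in the B cell list is counted in its summed level, and its own values are not reported here.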

Additional observations from a re-analysis of the deposited data

How the results depend on the processing

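Each comparison was repeated under 16 alternatives, 1 of them (without replicate 3 of both groups) chosen after seeing the data. The count of called genes, 98, became 45 with no filter on the mean, 159 with read coverage, 395 with the replicate number as a block and 22 to 69 without single libraries. The count of called ligands, 2, became 1 (Cd40lg) with no filter, with a common median of log2 ratios and with no mean-variance trend, and 1 without any single library. With the block it was 3 (Cd40lg, Fasl and Lta), which is also the set under a filter at 5 FPKM and under read coverage. Fasl reached that filter only through its PGE2 level, a mean of 9.76 FPKM against 2.63 with vehicle. Without replicate 3 of both groups the count of called ligands was 2, Cd40lg and Fasl. The causes were not tested. Fasl kept a log2 change of 1.29 to 1.85 and Cd40lg one of 0.9 to 1.01 throughout. Signs turned for uncalled genes. Tnf had a log2 change of 0.02 under the common median, 0.08 without replicate 3 of both groups and -0.16 to 0.22 without single libraries. Under read coverage Atp6v1g2 had 0.08 and Ddx39b -0.09. Without single libraries Tnfsf9 ranged from -0.12 to 0.25, Tnfrsf1b from -0.02 to 0.14, Casp8 from -0.03 to 0.16 and Ddx39b from -0.01 to 0.24. Among the named genes of the ligand and related lists, the block changed the calls of Fasl and Tnfrsf8 and no other.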
